A study of Mus musculus with 6 samples.

Results

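G2 and mitosis genes encode the machinery that takes a cell from duplicated DNA to a pair of daughter cells. The 40 genes followed here were picked by name for their roles in entry into mitosis, the spindle, the kinetochore, the exit from mitosis and cytokinesis, and 39 of them were measured among 18193 genes in all. A gene counted as measured when the platform annotation gave a probe set its symbol and no other symbol. Where a gene had several probe sets, the brightest on average stood for it. Ccnb1, the cyclin B1 gene, had no such probe set and was not analysed here.

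The samples were 6 arrays of mouse haematopoietic progenitor clone C6, a single myeloid clone from the Rosa26rtTA C57BL/6J strain. All carried the vector pRRL.TET.Evi1.IRES.EGFP, in which doxycycline turns on a codon-optimized murine Evi1 together with EGFP, and the series describes the clone as Evi1 dependent. All grew in S3F11 medium, which holds mSCF at 50 ng/ml, mIL-3 at 20 ng/ml, hFlt-3 ligand at 50 ng/ml and hIL-11 at 50 ng/ml. The doxycycline group (3 arrays) was kept under the drug at 1 µg/ml, and the withdrawal group (3 arrays) was harvested 48 h after its removal, so loss of the drug and loss of Evi1 cannot be told apart. The question was which transcripts differ once Evi1 is no longer induced. The labels do not say that replicates were separate cultures, so the p-values rest on a spread that may be technical, and the number of arrays limits the precision.

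In a dividing cell the transcripts of these genes build up in late S phase and G2 and are shut off again in early G1. Cdk1 with its B-type cyclins starts mitosis, the Aurora and Polo-like kinases build the spindle, the spindle checkpoint holds anaphase back until chromosomes are attached, and the anaphase-promoting complex (APC/C) then ends mitosis by marking cyclin B and securin for breakdown. In blood progenitors the level of such genes in a bulk RNA sample tracks how much of the culture is cycling, and they are widely used as proliferation markers.

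After 48 h without doxycycline, none of the 39 genes passed the threshold, which was a limma p adjusted by Benjamini-Hochberg over all probe sets below 0.05. That made 0 higher and 0 lower, against 1.2% of all genes called higher and 1.57% called lower (2.77% in either direction). At an unadjusted limma p below 0.05, 5 genes were higher (Aurka, Plk1, Birc5, Kif4 and Cdc25c) and 1 was lower (Pttg1). These are 12.8% and 2.56% of the 39, where 8% and 8.26% of all genes reached the same point. Among the 7488 genes at or above the level of the dimmest member these shares were 11% and 12.4%, so the share of higher members was close to that of genes as bright. Least squares without limma's moderation of the variances, added after seeing the data, called Aurka alone among the 39. Its count over all genes is not given here. The differences were small: they ran from -0.21 to 0.28 on the log2 scale, withdrawal minus doxycycline, and 20 of the 39 were under 0.1 in size. In bulk RNA, a different share of cells in G2 and mitosis and a different amount of RNA per cell cannot be told apart.

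On the chosen probe sets the arrays bounded each difference closely. Standard errors from limma (n = 3 per group) ran from 0.060 to 0.12, and the unadjusted 95% intervals of all 39 genes lay between -0.36 and 0.42. On the linear scale that is 0.780 to 1.34 times the doxycycline level. A 1.5-fold change thus lay outside the interval of each gene's chosen probe set. Of these intervals 33 held 0, 5 lay above it and 1 below it. They rest on a spread between arrays that may be technical, so they may not bound differences between separate cultures. Some dimmer probe sets had wider intervals, such as -0.59 to 0.13 for 1 of Nek2. RMA puts all arrays on a shared distribution, so a change common to most transcripts would not show in these values.

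**Figure D1:**
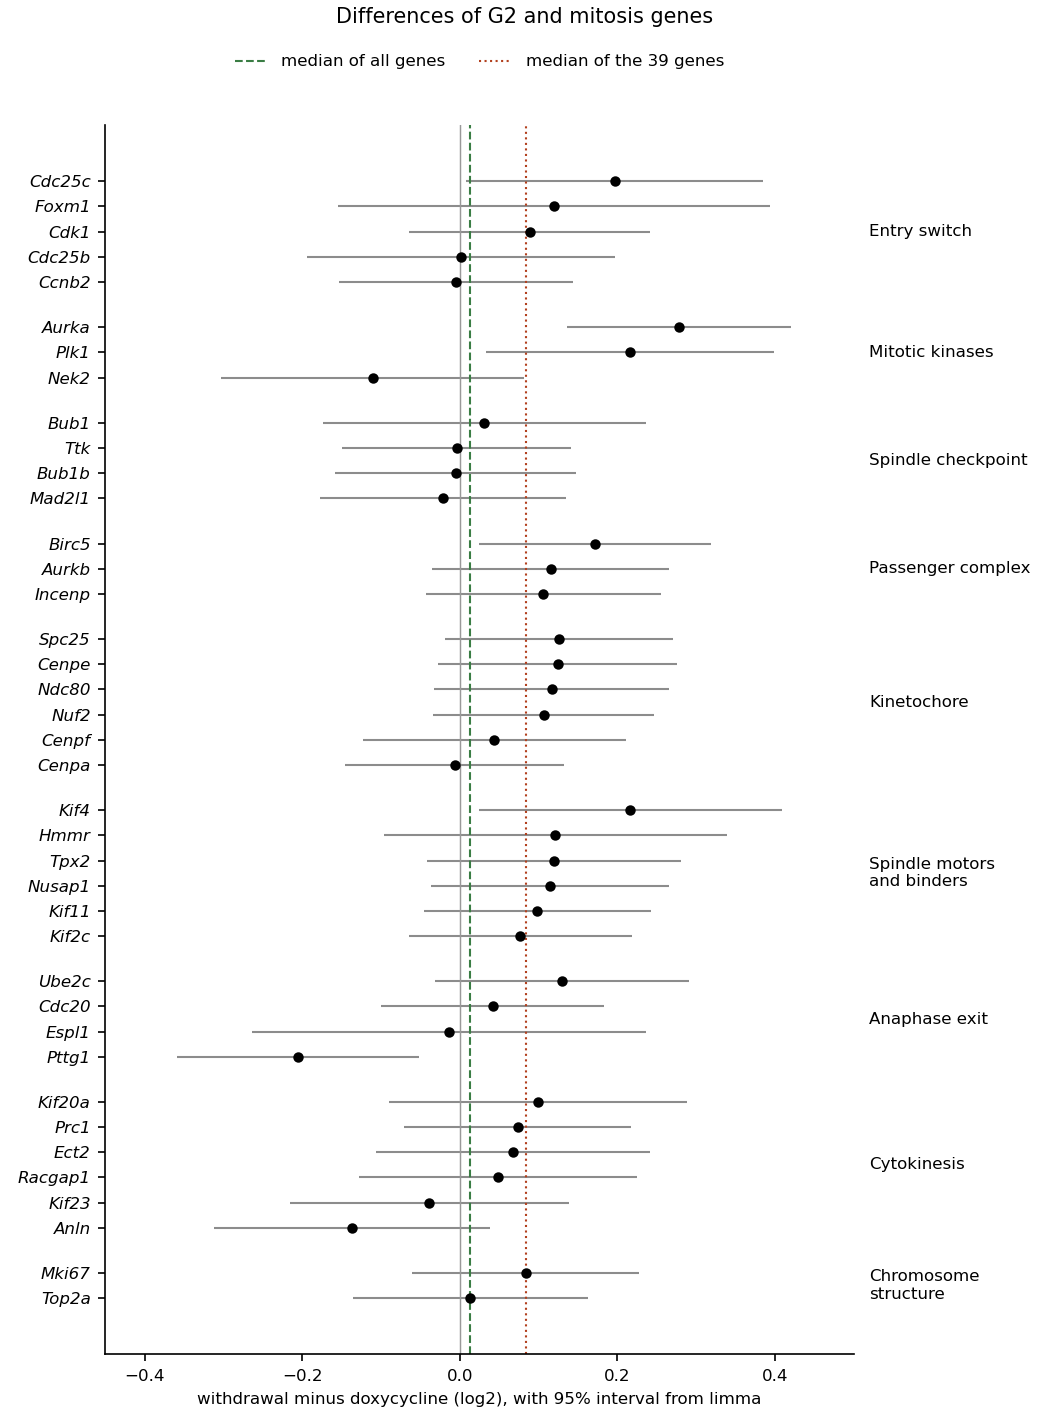
Difference in log2 value, withdrawal minus doxycycline, for each of the 39 genes, with the 95% interval from limma (n = 3 arrays per group), grouped by role; the dashed line is the median of all genes (0.013) and the dotted line the median of the 39 (0.084). The intervals of Aurka, Plk1, Birc5, Kif4 and Cdc25c lie above 0 and that of Pttg1 below it.

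Most differences pointed upward. Of the 39 genes 29 were above 0 (74.4%, against 54% of all genes), and their median difference was 0.084, against 0.013 over all genes. In 20 genes (51.3%) every withdrawal array lay above every doxycycline array, whereas 12.4% of all genes showed that pattern. The reverse pattern was seen in 2 genes, Pttg1 and Anln (5.13%, against 12.2% of all genes). Without doxycycline replicate 1 the reverse pattern was seen in 4 genes, with a background of 17%. All 39 genes were read from probe sets in the upper part of the level range, the dimmest at the 72.3rd percentile. Among the 7488 genes at or above that level, 2.3% were called higher and 2.38% lower. Of the same 7488 genes 50.3% were above 0, 18.8% had every withdrawal array above and 20.7% had every withdrawal array below, and their median difference was 0.00082.

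The upward tilt was smaller in the probe sets that were not chosen. The 39 genes had 48 further probe sets, of which 26 (54.2%, against 52.8% of all probe sets) were above 0, with a median difference of 0.011. In 6 of them (12.5%, against 10.2% of all probe sets) every withdrawal array lay above every doxycycline array, and in 2 every withdrawal array lay below (10.7% of all probe sets). Of these further probe sets 33 lay above the median level of the array, and none passed the threshold (smallest limma adjusted p = 0.257). When all probe sets of a gene were averaged, 11 genes, in place of 20, had every withdrawal array above, with a background of 12.1%, and the median difference was 0.060. Of the 25 genes with more than 1 probe set, 12 had the same sign in all of them and 13 did not.

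**Figure D2:**
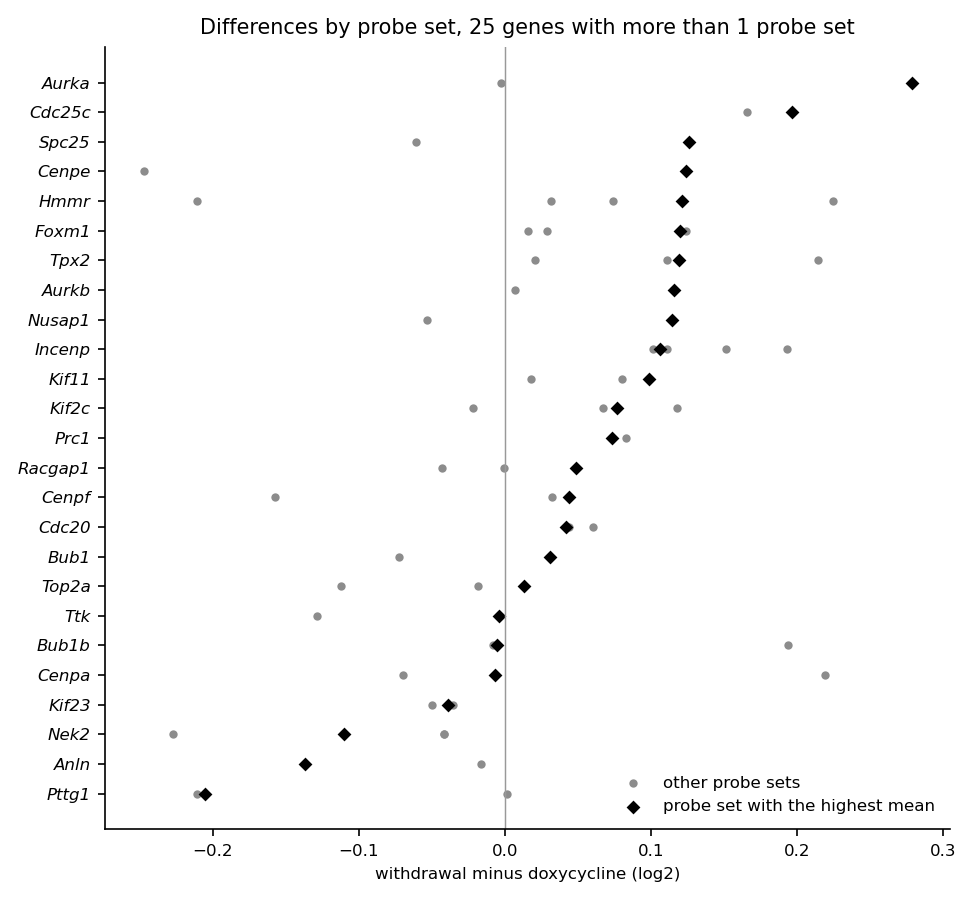
Difference in log2 value, withdrawal minus doxycycline, of every probe set of the 25 genes with more than 1; black diamonds mark the probe set with the highest mean, grey points the others. Incenp, Tpx2, Foxm1 and Cdc25c lie above 0 in all probe sets, while Cenpe, Hmmr, Cenpa and Aurka have probe sets on both sides of 0.

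By array, the median of the 39 genes (log2 value minus each gene's mean over 6 arrays) was 0.053, 0.053 and 0.0094 in withdrawal replicates 1, 2 and 3. It was -0.063, -0.028 and -0.016 in doxycycline replicates 1, 2 and 3. The groups did not overlap, and withdrawal replicate 3 and doxycycline replicate 1 were the lowest of their groups. These 2 arrays also stood apart from the others on the second principal component of the brighter probe sets, which held 31.9% of the variance. Without both, 31 genes were above 0 (50.8% of all genes), 24 had every withdrawal array above (25% of all genes), 5 had every withdrawal array below (23.6% of all genes) and 0 passed.

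Several features of the whole arrays bear on these values. Array medians ran from 5.22 to 5.27, and the 3 probe sets of Mecom, the locus of Evi1, read between 2.57 and 3.88 on all 6 arrays with no call; they may not read the codon-optimized transgene and so do not check the labels. All 10 haematopoietic markers (among them Ptprc, Spi1, Kit and Myb) lay above the median level, with a mean of 10.61 to 10.75 after withdrawal and 10.56 to 10.66 under doxycycline. Of 24 measured markers of lymphoid, red, endothelial, stromal and epithelial cells, 8 lay above the median level. Of these 24, Cdh1, the E-cadherin gene, alone passed the threshold, higher after withdrawal. As a sign of RNA or amplification quality, the 3' minus 5' gap of the transferrin receptor control was 1.41 to 1.57 after withdrawal and 1.71 to 1.91 under doxycycline, while the gaps of the Gapdh and actin controls overlapped between the groups. The part of these in the differences of the 39 genes was not tested.

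What the genes share apart from their function can be read from their promoters. Many G2 and mitosis promoters carry a cell cycle genes homology region (CHR), the site of the MuvB complexes that repress them in quiescence and G1 and activate them with B-Myb and FOXM1 in G2, and upstream of it CCAAT boxes, bound by the activator NF-Y. RefSeq windows of GRCm38.p6, from 250 bases before to 50 after a start site, were found for 33 of the 39 genes; Kif20a, Incenp, Aurkb, Cdc25c, Foxm1 and Tpx2 had none. The windows were searched on both strands for TTTGAA or TTCGAA (CHR) and CCAAT. Matches of the 2 motifs can share a base at their ends; they did so in 0 of the 33 genes and in 43 of 27025 genes (0.159%). A CHR match was present in 26 of 33 genes (78.8%, against 21.7% of 27025 genes with a window), a CCAAT match in 25 (75.8%, against 41.1%) and both in 23 (69.7%, against 8.61%). In the lists used for comparison both were present in 46% of 63 other G2 and M phase genes and 14.7% of 34 DNA replication genes.

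The matches lay close together near the start site. A CHR match beginning no further than 40 bases before the start site was present in 24 of the 33 genes (72.7%, against 5.48% of all genes), a limit set after the positions were seen. In 22 of these 24 genes a CCAAT match lay upstream of that CHR match. The nearest lay at a median of 35 bases from first base to first base (range 9 to 153), and in 12 genes at 25 to 45 bases. The spacing was read in the members alone, so neither it nor the 25 to 45 band has a background. Ccnb2 carried 3 CCAAT matches beginning at -87, -54 and -21, with CHR matches at -167 and 5 (positions from the start site, where the first transcribed base is 1). Aurka had them at -51 and -19 with a CHR match at 33, and Plk1 at -14 with a CHR match at 31. Kif4 had one at -152 and one at -5 on the other strand, with a CHR match at 20. A match is a description of letters and not of binding.

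**Figure D3:**
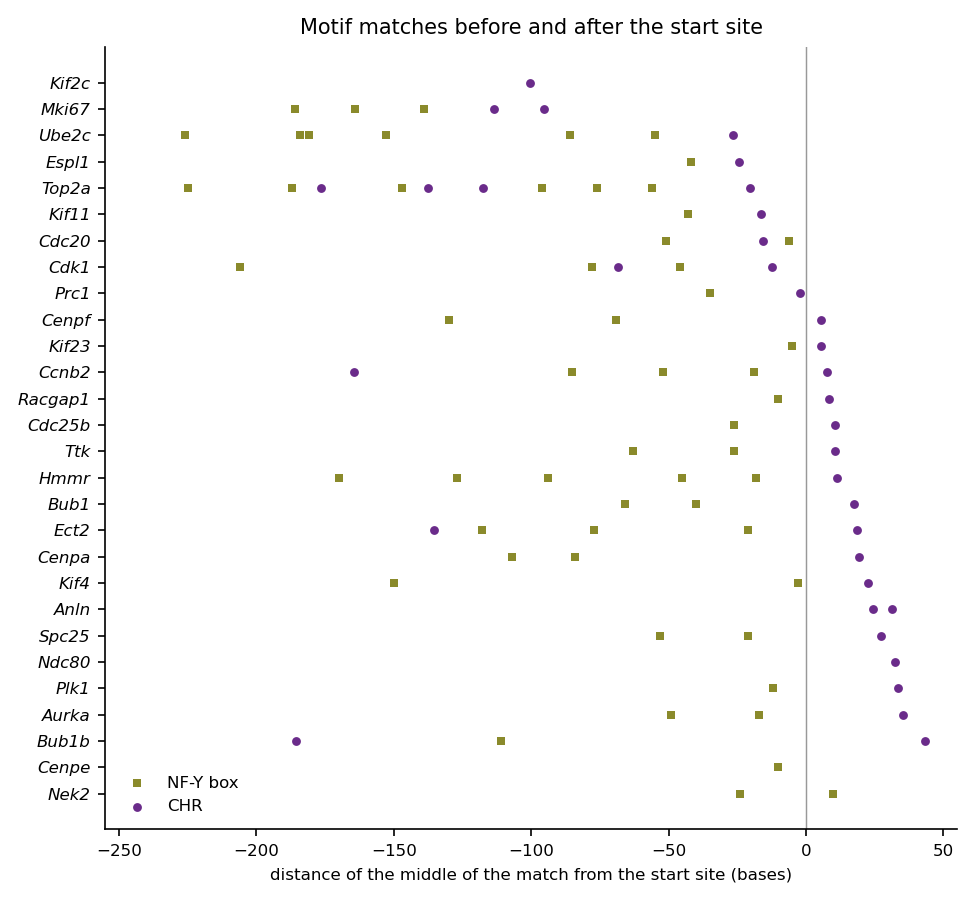
Positions of CHR matches (circles) and of CCAAT boxes, labelled NF-Y box (squares), from 250 bases before to 50 after the start site, for the 28 genes with at least 1 match; where a gene has more than 1 window, the one with the lower coordinate is drawn. In most genes a circle lies near the start site with squares to its left.

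The windows of 6 genes show this layout, with each CHR or CCAAT match on either strand in capitals (ATTGG is CCAAT on the other strand). They were chosen after the values were seen: Aurka, Plk1 and Kif4 had both matches and the largest upward differences, Ccnb2 had 3 CCAAT boxes and a difference near 0, and Pttg1 and Birc5 had neither match in the window while leading the downward and the passenger complex differences. The windows of Aurka and Pttg1 lie inside the annotated span of their genes, so these genes also have start sites further upstream. They are given 5′ to 3′ on the gene's strand: Aurka at chr2:172370521-172370820 (minus strand), Plk1 at chr7:122159185-122159484 (plus strand), Kif4 at chrX:100625815-100626114 (plus strand), Ccnb2 at chr9:70421505-70421804 (minus strand), Pttg1 at chr11:43425932-43426231 (minus strand) and Birc5 at chr11:117848987-117849286 (plus strand).
Aurka: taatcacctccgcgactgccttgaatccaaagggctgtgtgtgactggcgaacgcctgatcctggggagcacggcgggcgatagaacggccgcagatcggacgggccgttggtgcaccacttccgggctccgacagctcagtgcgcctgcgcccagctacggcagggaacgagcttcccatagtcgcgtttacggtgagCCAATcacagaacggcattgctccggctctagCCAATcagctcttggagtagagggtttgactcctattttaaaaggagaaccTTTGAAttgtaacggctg
Plk1: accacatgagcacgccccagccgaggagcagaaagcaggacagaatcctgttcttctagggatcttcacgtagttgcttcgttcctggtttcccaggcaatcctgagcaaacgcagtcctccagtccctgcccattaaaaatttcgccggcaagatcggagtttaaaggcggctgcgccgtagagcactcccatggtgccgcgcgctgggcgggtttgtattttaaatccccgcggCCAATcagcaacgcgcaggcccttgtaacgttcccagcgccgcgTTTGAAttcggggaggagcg
Kif4: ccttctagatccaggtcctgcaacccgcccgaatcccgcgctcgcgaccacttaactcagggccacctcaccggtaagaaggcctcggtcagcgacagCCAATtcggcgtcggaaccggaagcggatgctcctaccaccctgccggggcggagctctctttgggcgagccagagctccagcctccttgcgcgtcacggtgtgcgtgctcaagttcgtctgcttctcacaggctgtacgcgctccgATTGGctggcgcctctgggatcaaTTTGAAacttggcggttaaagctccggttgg
Ccnb2: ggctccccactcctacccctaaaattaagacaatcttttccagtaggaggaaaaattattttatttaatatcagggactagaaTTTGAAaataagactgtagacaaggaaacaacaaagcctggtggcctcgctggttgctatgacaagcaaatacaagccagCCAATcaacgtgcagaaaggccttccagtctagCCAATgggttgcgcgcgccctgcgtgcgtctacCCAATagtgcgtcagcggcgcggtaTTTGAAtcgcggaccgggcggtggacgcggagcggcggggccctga
Pttg1: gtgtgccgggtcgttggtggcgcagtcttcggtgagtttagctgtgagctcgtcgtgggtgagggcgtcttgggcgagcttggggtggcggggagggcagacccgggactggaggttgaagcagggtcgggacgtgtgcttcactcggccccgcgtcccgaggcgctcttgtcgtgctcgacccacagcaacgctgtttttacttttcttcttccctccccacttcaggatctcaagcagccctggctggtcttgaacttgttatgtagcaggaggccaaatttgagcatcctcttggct
Birc5: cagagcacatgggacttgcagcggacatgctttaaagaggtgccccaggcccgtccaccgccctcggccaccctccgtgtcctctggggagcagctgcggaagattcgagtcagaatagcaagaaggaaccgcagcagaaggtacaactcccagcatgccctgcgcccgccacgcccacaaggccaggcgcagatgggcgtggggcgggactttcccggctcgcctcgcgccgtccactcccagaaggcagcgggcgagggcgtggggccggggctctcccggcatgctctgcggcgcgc

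The differences of genes with and without the matches in their windows covered overlapping ranges. A site outside a window was not searched for, so a gene without a match may still carry one. The 23 genes with both matches had a median difference of 0.049, with 17 above 0 and a range of -0.039 to 0.28, and the 5 genes with neither (Mad2l1, Nusap1, Birc5, Nuf2 and Pttg1) ran from -0.21 to 0.17 with a median of 0.11 and 3 above 0. The 3 genes with a CHR match alone (Kif2c, Ndc80 and Anln) had a median of 0.077, and both genes with a CCAAT match alone, Cenpe and Nek2, differed by 0.12 and -0.11.

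Among the genes of the entry switch, Cdk1, the kinase that drives cells into mitosis, read 11.21, 11.18 and 11.29 after withdrawal and 11.15, 11.09 and 11.16 under doxycycline (log2 values, replicates 1 to 3). Its groups did not overlap, and the difference was 0.089 ± 0.066 (SE, n = 3 per group; limma adjusted p = 0.619). Ccnb2, the cyclin B2 gene, read 10.46, 10.45 and 10.38 after withdrawal and 10.40, 10.44 and 10.47 under doxycycline, with overlapping groups and a difference of -0.0048. The phosphatases that remove the inhibitory phosphates of Cdk1 differed from each other in their values. Cdc25c stood 0.20 ± 0.081 higher (limma adjusted p = 0.328) with groups that did not overlap. Its other probe set was 0.17 higher, with groups that overlapped and an interval of -0.090 to 0.42. Cdc25b overlapped fully at a difference of 0.0016. Foxm1, the transcription factor that activates G2 genes, had the largest standard error of the 39 (0.12). It read from 7.17 to 7.50 after withdrawal and from 7.05 to 7.40 under doxycycline, and its interval ran from -0.15 to 0.39.

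The largest difference of all 39 genes was that of Aurka, which encodes Aurora A, the kinase of centrosome maturation and spindle assembly. It read 9.85, 9.85 and 9.86 after withdrawal and 9.56, 9.56 and 9.61 under doxycycline. Every withdrawal array was higher, and the gap between the groups was wider than the spread within either. The difference was 0.28 ± 0.061 (SE, n = 3 per group), which is 1.21-fold, with a 95% interval of 0.14 to 0.42 and a limma adjusted p of 0.0755, just short of the threshold. Aurka passed when only probe sets above the median level were tested (adjusted p = 0.0166), with limma's trend and robust options (0.00385), with array weights (0.0415) and without moderation (0.0297). It did not pass under the other 14 of 18 alternatives, where its adjusted p reached 0.424. Its other probe set read 3.76 after withdrawal and 3.77 under doxycycline, near the floor of the arrays, and showed no such gap.

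Plk1, the Polo-like kinase that acts from mitotic entry to cytokinesis, read 9.58, 9.64 and 9.46 after withdrawal and 9.25, 9.41 and 9.37 under doxycycline. The groups did not overlap, with withdrawal replicate 3 nearest to the doxycycline arrays, and the difference was 0.22 ± 0.078 (limma adjusted p = 0.264), or 1.16-fold. Nek2, a kinase that separates centrosomes, went the other way, at 8.68, 8.63 and 8.49 after withdrawal and 8.62, 8.81 and 8.69 under doxycycline. Its groups overlapped and the difference was -0.11 ± 0.083 (limma adjusted p = 0.623); all 4 of its probe sets lay below 0.

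The spindle checkpoint genes lay close to 0, with a median difference of -0.0047. Mad2l1, whose protein inhibits Cdc20 until chromosomes are attached, read 11.05, 11.03 and 11.16 after withdrawal and 11.11, 11.07 and 11.12 under doxycycline, and withdrawal replicate 3 was the highest of all 6 arrays. Bub1 and Bub1b, which encode checkpoint proteins of the kinetochore, and Ttk, the kinase Mps1 that starts the signal, differed by 0.031, -0.0054 and -0.0040. The groups of all 4 genes overlapped, and their intervals together ran from -0.18 to 0.24. On its 2 bright probe sets Bub1b gave -0.0054 and -0.0078, while a dimmer one gave 0.19.

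All 3 listed genes of the chromosomal passenger complex, which corrects faulty attachments and later marks the site of cytokinesis, had every withdrawal array above every doxycycline array, a pattern of 12.4% of all genes and 18.8% of genes as bright as the members. Cdca8, the borealin subunit of the complex, was among the other G2 and M phase genes and was 0.12 higher, also without overlap. Birc5, the survivin gene, read 11.09, 11.05 and 11.09 after withdrawal and 10.88, 10.88 and 10.96 under doxycycline, a difference of 0.17 ± 0.063 (limma adjusted p = 0.271). It passed with limma's trend and robust options (adjusted p = 0.0332) and under none of the other alternatives. Incenp, the scaffold of the complex, read 11.32, 11.31 and 11.24 after withdrawal and 11.22, 11.18 and 11.15 under doxycycline. Its 5 probe sets all lay above 0, from 0.10 to 0.19. Aurkb, the Aurora B kinase of the complex, was 0.12 ± 0.065 higher on a probe set that can cross-hybridise, and 0.0067 higher on its other one. The name of the former ends in _x_at, as do those of the brightest probe sets of Incenp, Cdc25c, Cdc20 and Kif2c, so this limit holds for them too.

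Of 6 centromere and kinetochore genes 4 had every withdrawal array above (12.4% of all genes, 18.8% of genes as bright). Cenpa, the histone H3 variant that marks centromeres, did not: it read 10.87, 10.85 and 10.86 after withdrawal and 10.87, 10.85 and 10.88 under doxycycline, among the tightest values of all members, with an interval of -0.15 to 0.13. The Ndc80 complex, which binds microtubules, was read by 3 genes: Ndc80, Nuf2 and Spc25 stood 0.12, 0.11 and 0.13 higher, each without overlap of the groups. A dimmer probe set of Spc25 gave -0.061. It is the one left when probe sets with names ending in _s_at, _x_at or _a_at are left out, and the brighter one ends in _a_at. Their adjusted p from limma ran from 0.424 to 0.496. The kinesin gene Cenpe was 0.12 higher on its brighter probe set and 0.25 lower on its other one (a difference of -0.25), and Cenpf overlapped at 0.044.

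The 6 genes of spindle motors and microtubule binders all lay above 0 (54% of all genes, 50.3% of genes as bright), and 5 of them had every withdrawal array above (12.4% and 18.8%). Kif4, a chromokinesin, read 8.40, 8.31 and 8.16 after withdrawal and 8.03, 8.14 and 8.07 under doxycycline, so that withdrawal replicate 3 lay only just above doxycycline replicate 2. Its difference was 0.22 ± 0.082 (limma adjusted p = 0.289). Nusap1, which bundles spindle fibres, read 10.13, 10.19 and 10.24 after withdrawal and 10.05, 10.07 and 10.09 under doxycycline. Tpx2, the activator of Aurora A, was 0.12 higher with all 4 of its probe sets above 0. Kif11, the motor that pushes spindle poles apart, and Kif2c, which shortens microtubules, differed by 0.098 and 0.077. Hmmr was the exception in its overlap, since doxycycline replicate 1 (9.75) lay above withdrawal replicates 1 and 2 (both 9.68), and its 5 probe sets ran from -0.21 to 0.22.

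**Figure D4:**
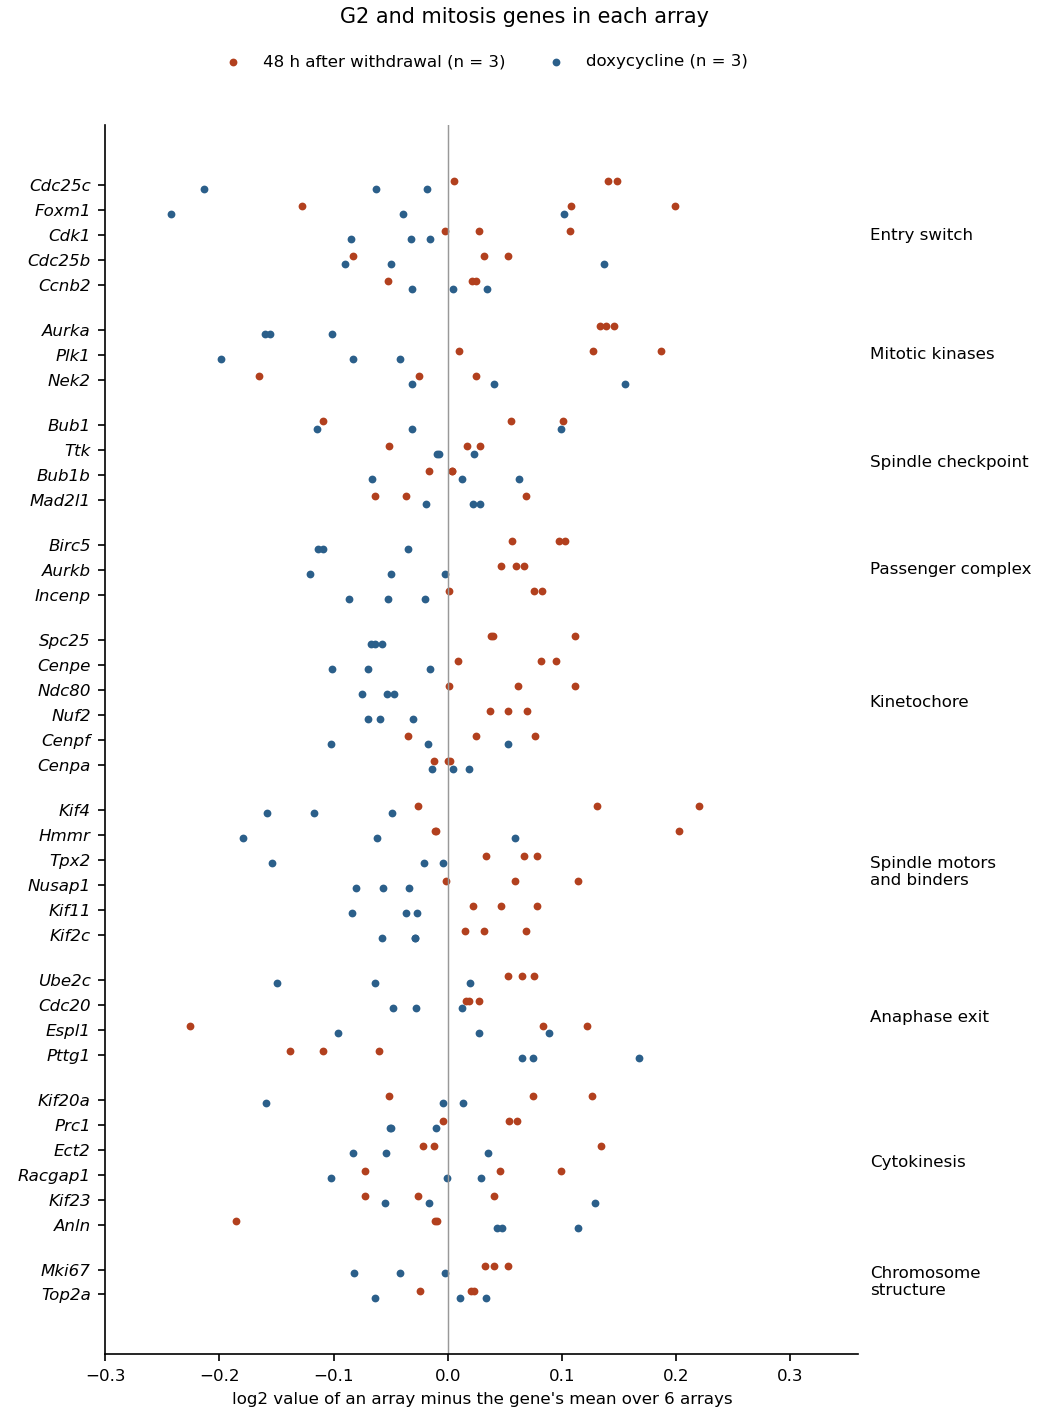
Log2 value of each array minus the gene's mean over 6 arrays, for the 39 genes grouped by role; each point is 1 array (red 48 h after withdrawal, blue under doxycycline, n = 3 each). Aurka, Birc5 and Spc25 show red points clear of the blue ones, the spindle checkpoint genes show them mixed, and Pttg1 and Anln show red points below blue ones.

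The genes that end mitosis differed in both directions. Pttg1 encodes securin, which holds separase inactive until anaphase; it read 11.07, 11.12 and 11.05 after withdrawal and 11.25, 11.26 and 11.35 under doxycycline. Every withdrawal array was lower, and the difference was -0.21 ± 0.066 (limma adjusted p = 0.210), the most negative of the 39. A second probe set gave -0.21 as well, and the dimmest one gave 0.0013. The dimmest is the one left when probe sets with names ending in _s_at, _x_at or _a_at are left out. Pttg1 passed with trend and robust options (adjusted p = 0.0171) and under no other of 18 alternatives, where its adjusted p reached 0.997. Cdc20 and Ube2c, an activator of the APC/C and its ubiquitin-conjugating enzyme, both lay above 0 without overlap. Cdc20 read 11.98, 11.98 and 11.99 after withdrawal and 11.97, 11.93 and 11.91 under doxycycline, and Ube2c differed by 0.13 ± 0.069 (limma adjusted p = 0.467). Espl1, the separase gene, overlapped at -0.014.

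Cytokinesis genes were mixed. Anln, the actin-binding scaffold anillin of the cleavage furrow, read 9.78, 9.78 and 9.60 after withdrawal and 9.83, 9.84 and 9.90 under doxycycline, a difference of -0.14 ± 0.075 (limma adjusted p = 0.479) without overlap of the groups. Prc1, which bundles the microtubules of the central spindle, read 9.96, 9.96 and 9.90 after withdrawal and 9.85, 9.85 and 9.89 under doxycycline, also without overlap but upward, by 0.073. The other 4, the kinesins Kif20a and Kif23, the GTPase activator Racgap1 and the exchange factor Ect2, overlapped and ran from -0.039 to 0.10. Kif23 and Racgap1, the partners of the centralspindlin complex, differed by -0.039 and 0.049.

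Mki67, the gene of the proliferation marker Ki-67 that coats mitotic chromosomes, read 12.00, 12.02 and 12.01 after withdrawal and 11.89, 11.93 and 11.97 under doxycycline. Every withdrawal array was higher, by 0.084 ± 0.062 on average (limma adjusted p = 0.617). Top2a, the topoisomerase that untangles sister chromatids, overlapped at 0.013, with doxycycline replicate 3 the highest array at 11.84.

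Other cell cycle genes also gave no call. Among 79 measured of 80 other G2 and M phase genes, 0 were called, 58 lay above 0 (73.4%, against 54% of all genes) and the median difference was 0.052. In 25 of them every withdrawal array lay above (31.6%, against 12.4% of all genes and 18.8% of genes as bright as the members). In 6 every withdrawal array lay below (7.59%, against 12.2% and 20.7%). At an unadjusted limma p below 0.05, 11 were higher (13.9%, against 8% and 11%) and 0 lower (against 8.26% and 12.4%). The smallest adjusted p were those of Cenpw (0.27 ± 0.064, limma adjusted p = 0.10), a kinetochore protein gene, and Gtse1 (0.26 ± 0.070, limma adjusted p = 0.133), a gene expressed in G2. Without withdrawal replicate 3, 1 gene of this list passed as higher. Of 42 measured DNA replication and S phase genes, 0 were called, 28 lay above 0 (66.7%, against 54%) and the median was 0.051. Gins2 (0.23) and Gins1 (0.21), subunits of the replicative helicase, were nearest to a call. At an unadjusted limma p below 0.05, 5 were higher (11.9%, against 8% and 11%) and 1 lower (2.38%, against 8.26% and 12.4%).

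The list of CDK inhibitors and repressors of mitotic genes held 17 measured genes, of which 0 were called. In it 9 lay above 0 (52.9%, against 54% of all genes) and 8 below, with a median of 0.011. At an unadjusted limma p below 0.05, 3 were higher (17.6%, against 8% of all genes) and 1 lower (5.88%, against 8.26%). Among genes as bright as the members these shares were 11% and 12.4%. Cdkn2c, the inhibitor p18 of Cdk4 and Cdk6, read 8.21, 8.23 and 8.24 after withdrawal and 8.54, 8.52 and 8.39 under doxycycline, a difference of -0.26 ± 0.068 (limma adjusted p = 0.130). Tfdp1, the DNA-binding partner of E2F factors, was 0.23 ± 0.062 higher (limma adjusted p = 0.138). Cdkn1a and Cdkn1b, the inhibitors p21 and p27 that accompany cell cycle arrest, differed by 0.086 and -0.067.

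**Figure D5:**
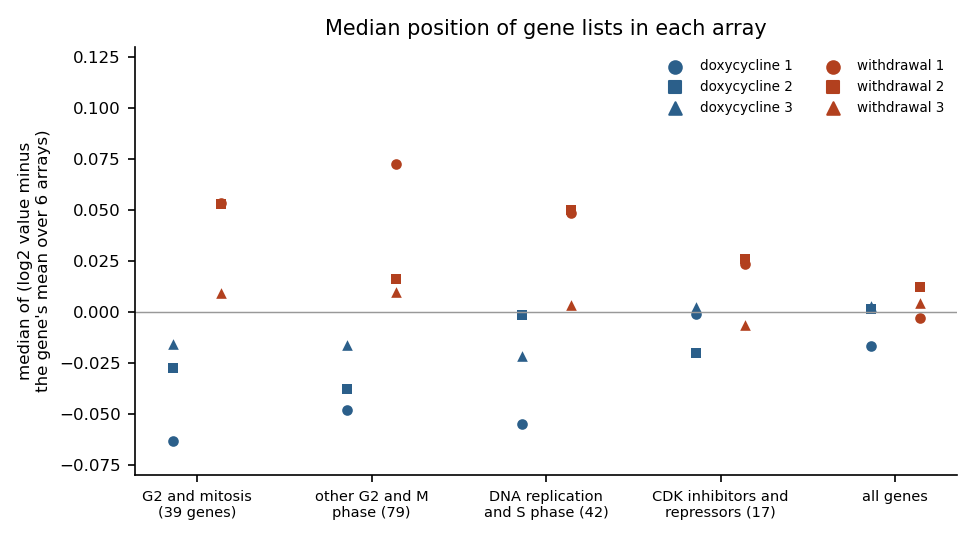
Median over each gene list of the log2 value minus the gene's mean over 6 arrays, 1 point per array (blue doxycycline, red withdrawal; circle, square and triangle are replicates 1, 2 and 3). The red points lie above the blue ones for the G2 and mitosis genes, the other G2 and M phase genes and the replication genes, and mix for the other lists.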

How the data were processed

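RMA values on the log2 scale, 1 per probe set and array, are as the authors deposited them; RMA is named in the submitters' processing notes, and its version is not given in the sources used here. Of 45101 rows, 64 manufacturer controls were left out. The annotation gave 34945 of 45037 probe sets a single symbol. Groups came from the sample titles and were compared on all 6 arrays by limma 3.58.1 (lmFit, eBayes; R 4.3.3), without covariates (4 residual and 3.54 prior degrees of freedom), two-sided, with Benjamini-Hochberg adjustment over all 45037 probe sets. The steps were run on simulated data as a check of the code. Recovery by size of difference is not given here, so that check does not show whether differences as small as the members' could be called. The members, lists and alternatives were chosen with earlier results of these data known. Values by array are given for the 3 members with the smallest adjusted p in each direction and the highest-mean member of each role; any member may be named, and others shown by array were chosen after their values were seen. Of each other list the 2 genes with the smallest adjusted p are named, and Cdca8, Cdkn1a and Cdkn1b were added outside this rule after seeing values. Promoters were to be printed for members past the threshold; none passed, so the 6 windows printed depart from that rule. Promoter windows and motif matches were read with pandas 2.3.3 in Python 3.11.15 and figures drawn with matplotlib 3.10.9.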

Additional observations from a re-analysis of the deposited data

How the results depend on the processing

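No G2 and mitosis gene passed with any 1 array left out, with the replicate number as a block (0 higher and 0 lower), with arrays centred on their medians, with repeated quantile normalization or with all probe sets of a gene averaged. Higher members numbered 1 above the median level, 2 with trend and robust options, 1 with array weights and 1 without moderation. With trend and robust options 1 was lower. Calls over all genes also rose. They were 218 higher and 286 lower of 18193 genes in the main fit, and 498 and 580 of the 11143 genes above the median level. With trend and robust options they were 634 and 732 of 18193, and with array weights 417 and 489 of 18193. The count over all genes without moderation is not given here. The members' median difference of 0.084 became 0.044 without probe sets whose names end in _s_at, _x_at or _a_at (suffixed probe sets), when 30 genes were left. The endings were not taken apart. With the median of each gene's probe sets the median difference was 0.033 (0.0325), and it ran from 0.067 to 0.094 with 1 array left out. Without suffixed probe sets 19 of 30 genes lay above 0 (54.5% of all genes), 12 had every withdrawal array above (12% of all genes) and 1 every withdrawal array below (11.3%). With arrays centred on their medians 16 members, in place of 20, had every withdrawal array above (11.5% of all genes), and with repeated quantile normalization 19 (13.6%). Under each of these 2 settings 2 had every withdrawal array below (11.8% and 12.4% of all genes). With the mean of probe sets 11 had every withdrawal array above (12.1% of all genes), and with the median 11 (11.8%). Genes with every withdrawal array below numbered 2 to 4 with 1 array left out (15.1% to 17.6% of all genes) and 5 without both arrays that stood apart (23.6%).

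Of the other G2 and M phase genes 0 or 1 were higher with 1 array left out (57 to 152 over all genes). In the same list 3 were higher above the median level (498 of 11143 genes), 6 with trend and robust options (634 of 18193) and 1 with array weights (417 of 18193). Higher replication genes numbered 1 above the median level and 1 with trend and robust options. Of the inhibitors and repressors 1 was higher and 1 lower under each of these same settings, and 1 was higher without moderation. Over all genes the calls ranged from 22 higher and 55 lower without both arrays apart to 634 and 732 with trend and robust options. Up to 6 members per setting changed sign, none past the threshold in that setting. Most lay near 0, but Pttg1 (0.0013) and Spc25 (-0.061) turned without suffixed probe sets and Cenpe (-0.0615) with the mean or median of probe sets. Deviations of same-numbered arrays correlated at -0.30, 0.46 and -0.033. With 3 arrays per group these values cannot show whether the numbers pair the samples, and the labels do not say. The block left 63 higher and 107 lower genes in all. The counts without moderation, with the median of probe sets, above 0 and without overlap were added after seeing the data. Dim probe sets limit what a second reading of a gene can show.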
